A study of Mus musculus with 18 samples.

Results

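The normal medullary thick ascending limb (MTAL) was compared with the normal cortical thick ascending limb (CTAL) of the mouse kidney. The comparison used 10 of the 18 RNA-seq pools of the series, 5 pools of wild type (WT) MTAL and 5 of WT CTAL, chosen by their pool names. The WT mice carried floxed *Cldn10* alleles without Cre recombinase, were littermates of the conditional knock-out (cKO) mice, and were described as adult males of 4 to 10 months. The labels give the strain as C57BL/6J, and the study describes a mainly C57BL/6 background. Each pool held 150 to 200 tubule fragments of a single mouse, dissected after liberase digestion from the cortex for CTAL and, for MTAL, from the outer medulla (inner stripe). The remaining pools, 5 of cKO CTAL and 3 of cKO MTAL from mice with the floxed alleles and Cre under the Ksp-cadherin promoter, served to measure the same segment difference in other animals. Of 55401 genes in the deposited count table, 11650 reached a CPM (count scaled to library size) of 3 in at least 5 of the 10 WT pools and were tested. A pool measures all cells in the dissected fragments, so that fewer cells of a type and less RNA per cell cannot be told apart.

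The thick ascending limb reabsorbs NaCl without water and so dilutes the tubular fluid. The cotransporter NKCC2 brings Na, K and Cl in at the apical side, the potassium channel ROMK returns K to the lumen, and the Na,K-ATPase and chloride channels complete transport at the basolateral side. The resulting lumen-positive voltage drives cations through tight junctions, where CLDN10 favours Na and the pair CLDN16 and CLDN19 favours Ca and Mg. The medullary part lies in a hyperosmotic and poorly oxygenated tissue, and the cortical part is the site where Ca and Mg reabsorption is set by the calcium-sensing receptor and parathyroid hormone.

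Total counts lay between 10824299 and 62339939 per pool, and of the 18 defining thick limb genes 16 lay above 19 CPM in every pool, while *Cldn14* and *Avpr2* were low. The label of CTAL pool 1 is contradictory, since its title and genotype name *Cldn10* KO mice and its pool name says WT. Its *Cldn10* level was 446 CPM, among the 384 to 579 CPM of the WT CTAL pools and above the 156 to 185 CPM of the cKO CTAL pools, when all 18 pools were normalized together. The study had excluded a cKO CTAL pool whose *Cldn10* level resembled WT CTAL, so that this level does not decide the label. It is counted as WT, and list counts that moved by over 1.5 times without it are given with the lists. *Xist*, an X-inactivation transcript of female cells, lay between 6.44 and 8.63 CPM in 6 WT pools and between 0.23 and 0.734 CPM in the other 4, while the Y-linked *Ddx3y* lay between 23.4 and 38.3 CPM in all 10. The 6 pools were CTAL 3 and 22 and MTAL 11, 15, 17 and 19, so that this feature was unequal between the segments. With a term for it the number of called genes went from 800 to 642, and without these pools, with MTAL pool 13 alone assumed to vary like the CTAL pools, 503 genes were called. The first principal component (30.6% of the variance) separated the segments, and MTAL pool 11 stood apart from all other pools on the second (14.3%).

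A minority of genes differed between the segments. At an adjusted p under 0.05, edgeR's quasi-likelihood test with Benjamini-Hochberg adjustment called 800 of the 11650 genes (6.87%), of which 322 (2.76%) were higher and 478 (4.1%) lower in MTAL. Among them 270 genes (2.32%) differed at least 2-fold, 76 higher (0.652%) and 194 lower (1.67%) in MTAL, and the groups did not overlap in CPM for 229 of the 270. Over all genes tested the groups did not overlap for 7.37%, and the median log2 fold change was 0.015. All fold changes below are MTAL relative to CTAL, levels are CPM on TMM-normalized library sizes, and values of single pools follow the order CTAL 1, 3, 8, 10 and 22, then MTAL 11, 13, 15, 17 and 19. Without CTAL pool 1, 538 genes were called.

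Several core genes of salt transport did not pass the test between the segments. *Slc12a1*, which encodes NKCC2, was measured at 14168, 13418, 13606, 14933 and 14721 CPM in the CTAL pools and at 15305, 15975, 14682, 15002 and 15125 CPM in the MTAL pools. The groups overlapped, and the log2 fold change was 0.10 ± 0.075 (SE), adjusted p = 0.505. This gene-level value does not separate the NKCC2 splice forms that differ along the limb. The Na,K-ATPase subunit gene *Atp1b1* (0.036 ± 0.07, adjusted p = 0.843) did not pass the test either. The same held for *Kcnj1*, which encodes ROMK (-0.16 ± 0.095, adjusted p = 0.407), for the sodium-proton exchanger gene *Slc9a3* (-0.074 ± 0.08, adjusted p = 0.688), for the cotransporter-activating kinase gene *Stk39* (0.037 ± 0.10, adjusted p = 0.892), and for *Bsnd*, which encodes the chloride channel subunit barttin (-0.33 ± 0.13, adjusted p = 0.178). Of the 18 defining thick limb genes, 2 were higher and 9 lower in MTAL, a share called of 61.1% against 6.87% of all genes tested, and their median log2 fold change was -0.49 against 0.015. This list and others below share members and were chosen with earlier results of these data known, so that their shares are not tests. The sum of the 18 genes lay between 88019 and 99059 CPM in CTAL and between 53763 and 65373 CPM in MTAL. The most abundant of them was *Umod*, the gene of the secreted protein uromodulin, at 50419.5, 50302, 48944, 47085 and 44121 CPM in CTAL and 31464, 26962, 23591, 29470.4 and 29135 CPM in MTAL. All MTAL pools lay below all CTAL pools for *Umod* (log2 fold change -0.78 ± 0.092, adjusted p = 4.11e-05).

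**Figure D1:**
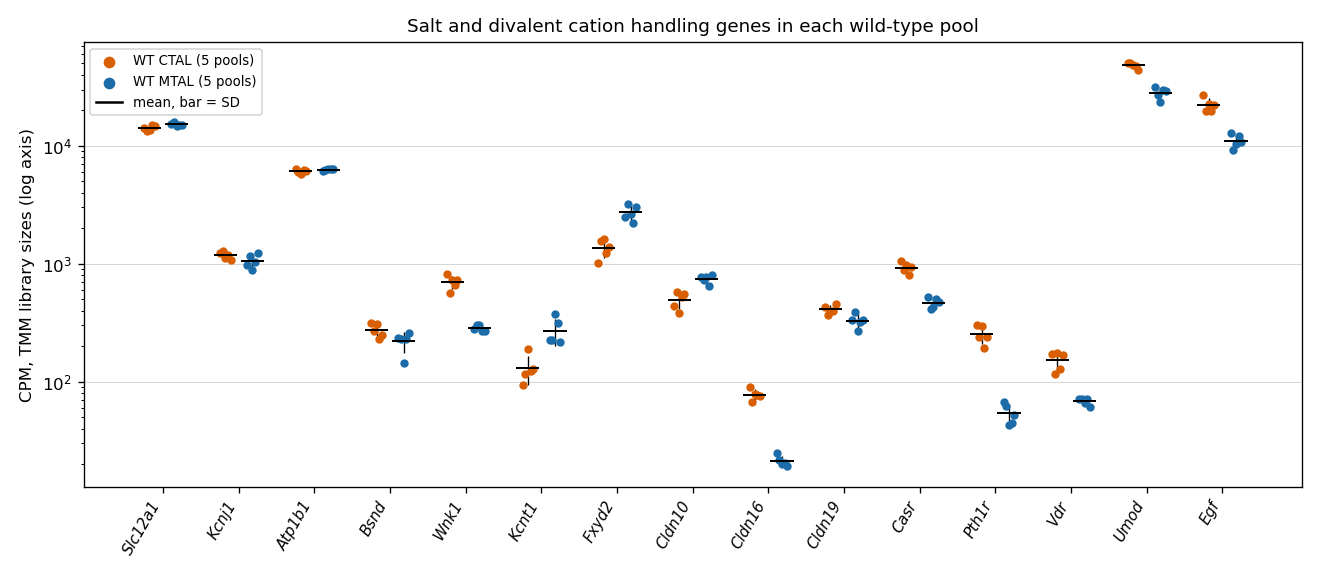
CPM of 15 genes of salt and divalent cation handling in each of the 5 WT CTAL pools (orange) and 5 WT MTAL pools (blue) on a logarithmic axis, with the mean (line) and SD (bar). *Slc12a1*, *Kcnj1*, *Atp1b1*, *Bsnd* and *Cldn19* overlap between the segments, *Kcnt1*, *Fxyd2* and *Cldn10* are higher in MTAL, and *Wnk1*, *Cldn16*, *Casr*, *Pth1r*, *Vdr*, *Umod* and *Egf* are lower.

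Basolateral genes went in both directions. *Fxyd2*, a regulatory subunit of the Na,K-ATPase, was measured at 1022, 1559, 1609.7, 1242 and 1374 CPM in CTAL and 2509, 3203, 2663, 2213 and 3016 CPM in MTAL, with every MTAL pool above every CTAL pool (log2 fold change 0.999 ± 0.13 (SE), adjusted p = 8.51e-05). *Kcnt1*, a sodium-activated potassium channel, was measured at 93.5, 116, 189, 123 and 127 CPM in CTAL and 225, 227, 372, 314 and 215 CPM in MTAL, again without overlap (1.06 ± 0.18, adjusted p = 0.00118). The basolateral potassium channel genes *Kcnj16* (-0.59 ± 0.078, adjusted p = 0.000122), *Kcnj10* (-0.39 ± 0.10, adjusted p = 0.0221) and *Kcnq1* (-0.74 ± 0.091, adjusted p = 6.43e-05) were lower in MTAL. So were the calcium pump gene *Atp2b4* (-1.55 ± 0.21, adjusted p = 0.000173) and the sodium-calcium exchanger gene *Slc8a1* (-1.16 ± 0.33, adjusted p = 0.0459), while the KCl cotransporter gene *Slc12a7* did not pass (0.072 ± 0.091, adjusted p = 0.742). In all, 3 of the 23 tested members of the basolateral list were higher and 6 lower, 39.1% called. Of the 10 fits that each left out 1 pool, 3 lost the call of *Kcnj10* (adjusted p = 0.0655 without CTAL pool 1) and 8 that of *Slc8a1*.

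On the apical side, 1 of 19 tested genes was higher in MTAL and 5 were lower, 31.6% called. *Slc9a2*, the sodium-proton exchanger NHE2, was measured at 89.2, 59.7, 69.9, 68.4 and 56.4 CPM in CTAL and 33.9, 27.5, 24.2, 27.5 and 24.1 CPM in MTAL. *Wnk1*, a kinase that controls cation-chloride cotransporters, was measured at 815, 565, 729, 658 and 723 CPM in CTAL and 279, 304, 299.7, 269 and 270.2 CPM in MTAL. Neither gene overlapped between the segments (*Slc9a2* -1.32 ± 0.13 (SE), adjusted p = 1.01e-05, *Wnk1* -1.30 ± 0.095, adjusted p = 2.99e-07). In deposited TPM, scaled by transcript length, the *Wnk1* difference was larger than in CPM, with means of 248 ± 47.4 in CTAL and 65.4 ± 15.5 in MTAL (SD, n = 5). TPM depends on the estimated transcript length, and the short kidney transcript of *Wnk1* was not separated here. *Klhl3*, an adaptor that targets WNK kinases for degradation, was lower in MTAL (-0.64 ± 0.10, adjusted p = 0.000682), and *Wnk4* did not pass (-0.17 ± 0.088, adjusted p = 0.328). *Kcnma1*, the pore gene of the BK potassium channel, was lower at levels under 9 CPM (-1.21 ± 0.29, adjusted p = 0.0161), and *Maged2*, a regulator of NKCC2 trafficking, did not pass (-0.22 ± 0.12, adjusted p = 0.336).

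Claudin genes differed in both directions. *Cldn16* (chr16:26463135-26482765, GRCm38), the Ca- and Mg-permeable claudin, was measured at 90.7, 66.8, 78.6, 76.5 and 75.3 CPM in CTAL and 24.7, 21.5, 20, 20.5 and 19.2 CPM in MTAL. *Cldn10* (chr14:118787908-118875489), the Na-permeable claudin, was measured at 439, 574, 382, 522 and 554 CPM in CTAL and 767, 727, 769.8, 648 and 798 CPM in MTAL. The segments did not overlap for either gene, *Cldn16* being lower (log2 fold change -1.88 ± 0.11 (SE), adjusted p = 5.27e-08) and *Cldn10* higher (0.59 ± 0.11, adjusted p = 0.00231) in MTAL. *Cldn19*, the partner of *Cldn16*, was measured at 433, 369, 395, 395 and 457 CPM in CTAL and 334, 389, 271, 318 and 334 CPM in MTAL. *Cldn19* overlapped between the segments and did not pass (-0.32 ± 0.10, adjusted p = 0.0606), while *Cldn16* did. Per transcript length, *Cldn10* was at 336 ± 55.4 TPM in CTAL and 498 ± 40.9 TPM in MTAL, *Cldn19* at 214 ± 17.4 and 175 ± 45.6 TPM, and *Cldn16* at 97.7 ± 11.9 and 25.8 ± 3.79 TPM. The inhibitory claudin gene *Cldn14* was at 2.28 to 6.19 CPM in CTAL and 1.31 to 4.96 CPM in MTAL and did not pass (-1.003 ± 0.40, adjusted p = 0.165). *Cldn3* did not pass (0.11 ± 0.13, adjusted p = 0.719), and *Cldn8* was lower in MTAL (-0.49 ± 0.10, adjusted p = 0.00346). At junctions where 3 cells meet, *Marveld2* (tricellulin) was higher (0.57 ± 0.13, adjusted p = 0.01) and *Ildr2* lower (-2.14 ± 0.50, adjusted p = 0.0143) in MTAL. MTAL pool 11 held 7.72 CPM of *Ildr2* and the other 4 MTAL pools 0.958 to 1.71 CPM. In fits that left out 1 pool the log2 fold change of *Ildr2* reached -3.05, and its call was lost with the *Xist* term (adjusted p = 0.052). The scaffold genes *Tjp3* (-1.04 ± 0.16, adjusted p = 0.000433) and *Magi1* (-0.81 ± 0.16, adjusted p = 0.00341) were lower and *Magi3* higher (0.64 ± 0.12, adjusted p = 0.00353). In all, 3 of the 29 tested members were higher and 6 lower, 31% called. The *Cldn10* value sums its a and b forms.

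The divalent cation genes called were lower in MTAL. Of 21 tested members none was higher and 11 were lower in MTAL, 52.4% called against 6.87% of all genes, with a median log2 fold change of -0.67 against 0.015. *Pth1r*, the parathyroid hormone receptor (chr9:110722085-110747145), was measured at 299.7, 239, 294, 192 and 241 CPM in CTAL and 67.7, 62.5, 43.2, 44.2 and 51.6 CPM in MTAL. *Casr*, the calcium-sensing receptor (chr16:36493696-36562141), was measured at 1059, 881, 967, 797 and 940.5 CPM in CTAL and 524, 415, 426, 498 and 476 CPM in MTAL. *Vdr*, the vitamin D receptor, was measured at 173, 116, 175, 127 and 167 CPM in CTAL and 70.8, 71.5, 66.1, 71.5 and 60.6 CPM in MTAL. None of these receptor genes overlapped between the segments, and the log2 fold changes were -2.23 ± 0.15 (SE), adjusted p = 1.13e-07 for *Pth1r*, -0.99 ± 0.094, adjusted p = 4.63e-06 for *Casr* and -1.16 ± 0.12, adjusted p = 8.65e-06 for *Vdr*. *Pth1r* overlaps *Myl3* on the other strand, and the strand setting of the counting is not stated.

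The list also holds genes of phosphate and FGF23 handling. *Kl*, which encodes the FGF23 co-receptor klotho, was measured at 563, 480.4, 454, 484 and 455 CPM in CTAL and 250.2, 215, 206, 237 and 225 CPM in MTAL. *Slc34a2*, the sodium-phosphate cotransporter NPT2b, was measured at 61.7, 27.9, 35.8, 41.7 and 50.4 CPM in CTAL and 13.8, 13.2, 7.76, 10 and 7.74 CPM in MTAL. Neither overlapped (*Kl* -1.10 ± 0.085 (SE), adjusted p = 5.59e-07, *Slc34a2* -2.05 ± 0.22, adjusted p = 1.82e-05). The FGF receptor genes *Fgfr4* (-1.08 ± 0.19, adjusted p = 0.00153) and *Fgfr1* (-0.61 ± 0.10, adjusted p = 0.00102) were lower, and the phosphate transporter genes *Slc20a1* (-0.032 ± 0.19, adjusted p = 0.953) and *Slc20a2* (0.02 ± 0.11, adjusted p = 0.951) did not pass. Among genes of magnesium handling, *Egf*, the precursor of the magnesium-conserving growth factor, was measured at 27186, 19888, 22631, 19865 and 22267 CPM in CTAL and 12783, 9254, 10317, 12059 and 10839 CPM in MTAL. *Egf* did not overlap (-1.02 ± 0.11, adjusted p = 1.89e-05). The magnesium transporter gene *Slc41a1* (-0.67 ± 0.13, adjusted p = 0.00447) and *Rragd*, a GTPase gene linked to renal magnesium loss (-0.99 ± 0.12, adjusted p = 3.93e-05), were also lower, and *Cnnm2* did not pass (-0.25 ± 0.16, adjusted p = 0.45). *S100g*, which encodes the calcium buffer calbindin-D9k, was low in both segments, at 5.23 to 8.62 CPM in CTAL and 1.71 to 3.32 CPM in MTAL (-1.52 ± 0.26, adjusted p = 0.0012).

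Markers of the distal convoluted tubule (DCT), the cortical segment that follows, were read beside these genes. Their sum lay between 1831 and 2480 CPM in CTAL and between 484 and 653 CPM in MTAL, without overlap. That sum was mostly *Klk1*, the kallikrein gene, at 2321, 1822, 2253, 1774 and 1659 CPM in CTAL and 527, 466, 366, 379 and 399 CPM in MTAL (-2.20 ± 0.12 (SE), adjusted p = 5.27e-08). The kallikrein genes form a family of close relatives, so that the *Klk1* level is uncertain. Of the defining DCT markers, *Slc12a3* was at 11.1, 6.16, 11.2, 1.9 and 22.2 CPM in CTAL and 2.63, 1.56, 2.22, 2.68 and 2.02 CPM in MTAL, higher in 4 of the 5 CTAL pools than in any MTAL pool. *Pvalb* was at most 0.76 CPM and *Trpm6* at most 3.48 CPM in any pool, and none of the 3 reached the filter. The macula densa markers, of which none reached the filter, summed to 6.63 to 23.2 CPM in CTAL and to 2.44 to 6.35 CPM in MTAL, with *Nos1* at most 6.05 CPM. The part of these cells in the differences above was not tested.

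Acid-base and ammonium genes were divided. Of 23 tested members 3 were higher and 8 lower in MTAL, 47.8% called. *Slc4a7*, the basolateral sodium-bicarbonate cotransporter NBCn1, was measured at 16.3, 17, 20.7, 24.1 and 17.7 CPM in CTAL and 40.6, 34.6, 29.5, 42.5 and 58 CPM in MTAL. *Car2*, the cytosolic carbonic anhydrase, was measured at 218, 257, 213, 262 and 244 CPM in CTAL and 312, 367, 322, 304 and 382 CPM in MTAL. Every MTAL pool lay above every CTAL pool for both genes (*Slc4a7* 1.10 ± 0.17 (SE), adjusted p = 0.000585, *Car2* 0.50 ± 0.09, adjusted p = 0.00209). The third was *Slc4a8*, a sodium-driven chloride-bicarbonate exchanger (0.44 ± 0.11, adjusted p = 0.0225). The membrane-bound carbonic anhydrase *Car15* was measured at 352, 242, 328, 255 and 342 CPM in CTAL and 64.9, 91.2, 62.2, 45.4 and 60.3 CPM in MTAL. *Car12* was measured at 102, 109, 127, 71.3 and 55.8 CPM in CTAL and 38.7, 17.7, 23.2, 19.3 and 16.8 CPM in MTAL. Both were lower without overlap (*Car15* -2.23 ± 0.16, adjusted p = 2.64e-07, *Car12* -2.02 ± 0.24, adjusted p = 4.68e-05).

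Of the 4 proton pump subunit genes of the list, 3 were lower in MTAL. *Atp6v1b1* was measured at 255, 178, 282, 193 and 213 CPM in CTAL and 79.1, 48.2, 54.4, 76.7 and 50.8 CPM in MTAL (-1.86 ± 0.16 (SE), adjusted p = 1.68e-06), without overlap. *Atp6v1a* (-0.68 ± 0.092, adjusted p = 0.000144) and *Atp6v0a4* (-0.54 ± 0.11, adjusted p = 0.0041) were lower too, and *Atp6v1b2* did not pass (0.18 ± 0.10, adjusted p = 0.374). The anion exchanger gene *Slc4a2* did not pass (0.0072 ± 0.10, adjusted p = 0.981). Several of these genes also mark intercalated cells. The sum of 11 intercalated cell markers overlapped between CTAL (77.9 to 109 CPM) and MTAL (30.1 to 145 CPM), with MTAL pool 11 highest, and 2 of its 8 tested members were lower, *Slc4a9* (-1.54 ± 0.29, adjusted p = 0.00267) and *Atp6v1c2* (-1.26 ± 0.29, adjusted p = 0.012). That count was 1 without any 1 CTAL pool, where *Slc4a9* no longer reached the filter, and 4 without MTAL pool 11. *Slc4a1* and *Foxi1*, which define these cells, did not pass (*Slc4a1* 0.071 ± 0.34, adjusted p = 0.941, *Foxi1* -0.60 ± 0.35, adjusted p = 0.39). *Rhcg*, the ammonia channel gene, overlapped (-0.71 ± 0.43, adjusted p = 0.411), with 26 CPM in MTAL pool 11 and 4.27 to 9.53 CPM in the other 4 MTAL pools.

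Of 46 tested hormone receptor genes 2 were higher and 7 lower in MTAL, 19.6% called against 6.87% of all genes, and 37 did not pass. Their median log2 fold change was -0.042. The receptor of the antidiuretic hormone, *Avpr2*, was measured at 22.5, 39.2, 18.9, 26.2 and 21.4 CPM in CTAL and 28.9, 31, 21, 17.5 and 32.7 CPM in MTAL and did not pass (0.039 ± 0.21 (SE), adjusted p = 0.946). *Ptger3*, the prostaglandin E2 receptor EP3, was measured at 737, 876, 544, 929 and 748 CPM in CTAL and 946, 1016, 809.8, 695 and 1015 CPM in MTAL, with overlap (0.23 ± 0.14, adjusted p = 0.41). The glucagon receptor gene *Gcgr* was measured at 167, 169, 189.9, 152 and 161 CPM in CTAL and 107, 102, 98.1, 106 and 95.3 CPM in MTAL, without overlap (-0.73 ± 0.079, adjusted p = 1.89e-05). *Tgfbr1* was lower (-0.48 ± 0.11, adjusted p = 0.00878), and *Tnfrsf1a* (0.46 ± 0.084, adjusted p = 0.00219) and the fatty acid-sensing nuclear receptor gene *Ppara* (0.82 ± 0.20, adjusted p = 0.017) were higher. The call of *Ppara* was lost without CTAL pool 8 (adjusted p = 0.0527).

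Genes of the cAMP pathway lie downstream of several of these receptors. Of 34 tested genes 1 was called (2.94%, against 6.87% of all genes), 2 without CTAL pool 22 or MTAL pool 11 or 17, and 4 without MTAL pool 19, and the median log2 fold change was -0.014. The adenylyl cyclase gene *Adcy6* was at 338, 334, 396, 370.1 and 379 CPM in CTAL and 349.9, 436, 437, 372 and 388 CPM in MTAL (0.13 ± 0.085 (SE), adjusted p = 0.472), and the kinase gene *Prkaca* did not pass (-0.29 ± 0.087, adjusted p = 0.0612). The gene called was *Slco2a1*, a prostaglandin transporter, at 26.2, 26, 34.3, 27.3 and 48.8 CPM in CTAL and 13.3, 12.1, 9.22, 8.09 and 5.33 CPM in MTAL (-1.76 ± 0.24, adjusted p = 0.000144). For aldosterone, 2 of 14 tested genes were lower in MTAL and none higher (14.3% called, against 6.87% of all genes), and 4 were lower without MTAL pool 11. *Scnn1a*, which encodes the alpha subunit of the epithelial sodium channel, was at 511, 469.8, 479, 421 and 519 CPM in CTAL and 310.3, 255, 284, 303 and 297 CPM in MTAL without overlap (-0.73 ± 0.083, adjusted p = 2.63e-05). *Scnn1b* was under 19 CPM in every pool (-1.10 ± 0.31, adjusted p = 0.0431, lost in 7 of the 10 fits that left out 1 pool). The receptor gene *Nr3c2* did not pass (-0.26 ± 0.11, adjusted p = 0.196), nor did *Hsd11b2*, whose product protects it (-0.52 ± 0.41, adjusted p = 0.55). Principal cell markers summed to 141 to 299 CPM in CTAL and 83.5 to 365 CPM in MTAL, MTAL pool 11 being the highest. Of 9 tested 1 was lower, and 5 without that pool, and *Aqp2* did not pass (-0.47 ± 0.43, adjusted p = 0.627).

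Of the genes of osmotic adaptation, those called were mostly higher in MTAL. Of 36 tested members 10 were higher, 1 was lower and 25 did not pass, 30.6% called, with a median log2 fold change of 0.29 against 0.015 over all genes. The largest differences were in transporters. *Slc6a12*, the betaine transporter BGT1, was measured at 2.18, 5.42, 3.66, 6.09 and 5.22 CPM in CTAL and 22.2, 32, 14.4, 23.8 and 31.4 CPM in MTAL. *Slc14a1*, the urea transporter UT-B, was measured at 1.91, 3.08, 1.71, 1.33 and 2.08 CPM in CTAL and 10.6, 6.9, 10.2, 15.3 and 12.7 CPM in MTAL. For both genes the lowest MTAL pool lay above the highest CTAL pool (*Slc6a12* 2.47 ± 0.28 (SE), adjusted p = 2.49e-05, *Slc14a1* 2.49 ± 0.28, adjusted p = 2.63e-05).

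BGT1 is a known target of the tonicity factor NFAT5, which binds the tonicity-responsive enhancer TonE. Bases -150 to -1 before an annotated start are shown for *Slc6a12*, which separated the segments, and for *Slc5a3* (chr16:92058172-92058321), the inositol transporter gene, which did not pass. They are from RefSeq on GRCm38.p6, both on the plus strand, and capitals mark a match to the TonE consensus. The first of 5 annotated *Slc6a12* starts (chr6:121342424-121342573) holds a match at bases -75 to -65.
Slc6a12: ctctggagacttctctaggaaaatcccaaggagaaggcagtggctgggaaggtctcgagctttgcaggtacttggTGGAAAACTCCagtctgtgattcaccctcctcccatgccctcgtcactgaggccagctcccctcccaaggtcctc
Slc5a3: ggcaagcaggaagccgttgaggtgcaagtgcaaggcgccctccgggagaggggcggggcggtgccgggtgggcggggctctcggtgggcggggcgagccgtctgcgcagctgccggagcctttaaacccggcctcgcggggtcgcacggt
The other 4 *Slc6a12* starts and the single *Slc5a3* and *Aqp1* starts held no match in the 250 bases before them. On both strands, 3 of 29 members of the osmotic list with a window (10.3%) held a match, against 3.95% of tested genes with a window (349 of 8835), 10.9% of the genes at least 2-fold higher in MTAL (6 of 55) and 3.21% of those at least 2-fold lower (5 of 156). A match is a description of letters and not a site. *Slc14a1*, *Akr1b3* and *Slc6a6* had no window.

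The systems for other osmolytes did not pass the test. *Slc5a3* was measured at 1499.9, 1464, 1324, 2182 and 2236 CPM in CTAL and 2079, 2492, 3402, 2001 and 2039 CPM in MTAL (0.46 ± 0.17 (SE), adjusted p = 0.124). Its locus lies within *Mrps6* on the same strand, so that reads may be shared. *Akr1b3*, the sorbitol-forming aldose reductase gene, was at 30.2, 42.6, 27.4, 27.9 and 31.8 CPM in CTAL and 38.5, 34.5, 27.3, 26.6 and 30.3 CPM in MTAL (-0.018 ± 0.14, adjusted p = 0.967). The taurine transporter gene *Slc6a6* was at 18.5, 35.2, 25.9, 26.2 and 23.7 CPM in CTAL and 38.7, 31.7, 29.9, 40.3 and 42.2 CPM in MTAL (0.50 ± 0.16, adjusted p = 0.0702). The 3 genes overlapped between the segments. *Sord* (-0.046 ± 0.081, adjusted p = 0.825) and the glycerophosphocholine hydrolase gene *Gdpd5* (0.41 ± 0.30, adjusted p = 0.511) did not pass either.

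*Nfat5* itself was modestly higher in MTAL, at 152, 156, 224, 187 and 178 CPM in CTAL and 223, 233, 353, 231 and 235 CPM in MTAL, with overlap through CTAL pool 8 and MTAL pool 11 (0.51 ± 0.13 (SE), adjusted p = 0.0288). The amino acid transporter gene *Slc7a5* was at 11.7, 11.7, 12.7, 12.5 and 12.4 CPM in CTAL and 25.3, 27.9, 30.2, 24.7 and 34.4 CPM in MTAL, without overlap (1.22 ± 0.13, adjusted p = 1.89e-05). *Ranbp3l* was at 59.6, 112, 73.9, 113 and 57 CPM in CTAL and 149, 261, 114, 239 and 288 CPM in MTAL, barely apart (1.34 ± 0.25, adjusted p = 0.00224). The chaperone genes *Hspa1b* (0.51 ± 0.14, adjusted p = 0.0405) and *Cryab* (0.93 ± 0.21, adjusted p = 0.0109) were higher, while 19 of the 21 tested heat shock genes did not pass. Reads of *Hspa1b* may be shared with its copy *Hspa1a* (0.68 ± 0.22, adjusted p = 0.0791). The choline transporter gene *Slc44a1* (0.35 ± 0.082, adjusted p = 0.0142) completed the group with *Aqp1* and *Slc2a1*. The calls of *Nfat5* (adjusted p = 0.0888) and *Hspa1b* (0.106) were lost without CTAL pool 1, which left 1 of the heat shock genes. Of the 10 fits that left out 1 pool, 5 lost the call of *Nfat5* and 8 that of *Hspa1b*. Both calls were also lost with the *Xist* term (adjusted p = 0.0652 and 0.0808).

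The water channel gene *Aqp1* was at 18.9, 83.4, 21.2, 26.3 and 44.8 CPM in CTAL and 93.4, 63, 122, 135 and 128 CPM in MTAL, overlapping through CTAL pool 3 (1.501 ± 0.34 (SE), adjusted p = 0.00988). *Aqp1* and *Cryab* are also markers of the thin limbs, which lie beside MTAL. Of the 8 tested thin limb markers these 2 were higher and none lower. The sum of all 12 overlapped only through CTAL pool 3 (392 CPM), with 208 to 261 CPM in the other CTAL pools and 333 to 426 CPM in MTAL. The urea transporter gene *Slc14a2* was at 2.99, 46.5, 5.6, 3.1 and 4.03 CPM in CTAL and 62.2, 40.4, 68.4, 24.9 and 32.3 CPM in MTAL (1.99 ± 0.65, adjusted p = 0.0835), and *Cldn4* and *Bst1* did not reach the filter. *Slc14a1* is also an endothelial gene of the medulla. It was the only one of 11 endothelial markers called, *Pecam1* (0.12 ± 0.17, adjusted p = 0.772), *Plvap* (0.16 ± 0.19, adjusted p = 0.73) and *Kdr* (-0.28 ± 0.18, adjusted p = 0.44) did not pass, and the sum overlapped (335 to 623 CPM in CTAL and 422 to 585 CPM in MTAL). The part of thin limbs and vessels in the *Aqp1* and *Slc14a1* values was not tested.

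**Figure D2:**
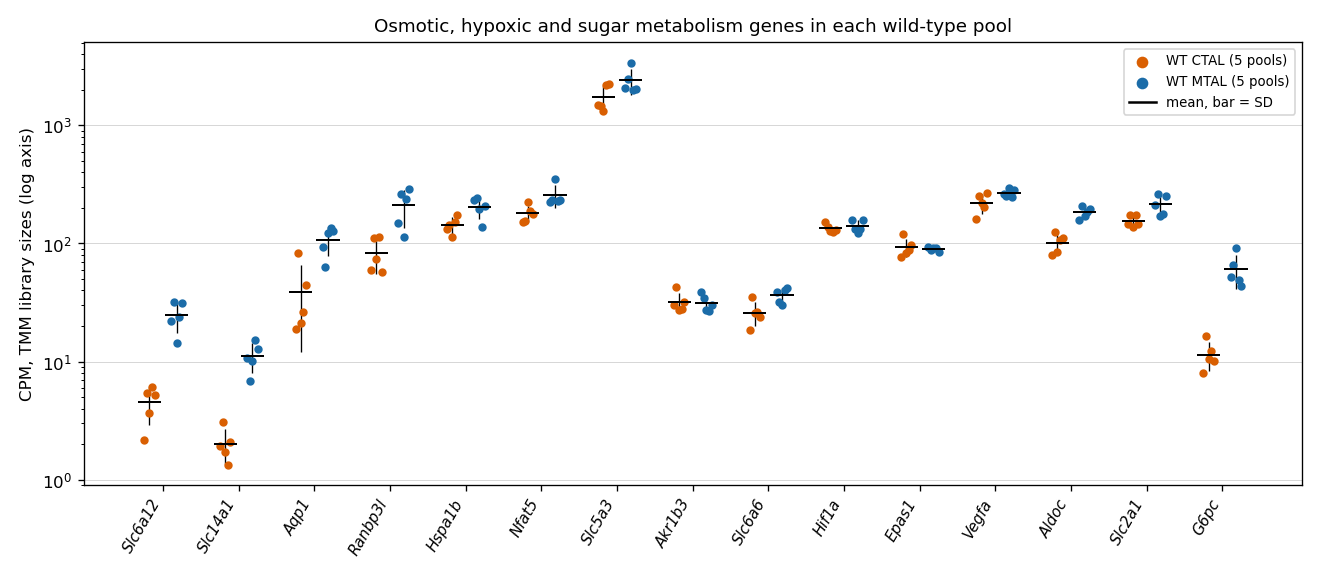
CPM of 15 genes of osmotic adaptation, hypoxia and sugar metabolism in each WT CTAL pool (orange) and WT MTAL pool (blue) on a logarithmic axis, with the mean (line) and SD (bar). *Slc6a12*, *Slc14a1*, *Ranbp3l*, *Aldoc* and *G6pc* are separated between the segments, whereas *Slc5a3*, *Akr1b3*, *Slc6a6*, *Hif1a*, *Epas1* and *Vegfa* overlap.

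The HIF genes did not pass the test between the segments, and some target genes did. Of 50 tested members 7 were higher and 3 lower in MTAL, 20% called, with a median log2 fold change of 0.0067. *Hif1a* was at 153, 139, 127, 124 and 129.8 CPM in CTAL and 158, 134, 123, 132 and 159 CPM in MTAL (0.068 ± 0.093 (SE), adjusted p = 0.762). *Epas1*, which encodes HIF2 alpha, was at 77.5, 119, 83.3, 88.1 and 96.9 CPM in CTAL and 94, 88.1, 91.6, 91.9 and 85.1 CPM in MTAL (-0.041 ± 0.10, adjusted p = 0.877). Both factors are controlled mainly at the protein level, which RNA does not show. The angiogenic factor gene *Vegfa*, at 161, 250.1, 219, 202 and 267 CPM in CTAL and 262, 254, 296, 246 and 284 CPM in MTAL, overlapped and did not pass (0.29 ± 0.12, adjusted p = 0.169). *Egln1*, an oxygen sensor that marks HIF for degradation, was lower (-0.32 ± 0.086, adjusted p = 0.03), and *Vhl* did not pass (0.053 ± 0.20, adjusted p = 0.925). The other lower members were *Car12* (-2.02, adjusted p = 4.68e-05), the largest change of the list in size, and *Pdk3* (adjusted p = 0.0466).

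The hypoxia list members higher in MTAL were mostly genes of glucose use. *Aldoc*, a glycolytic aldolase, was at 79.5, 124, 84.2, 106 and 112 CPM in CTAL and 157, 209, 172, 186 and 194 CPM in MTAL, without overlap (0.86 ± 0.12 (SE), adjusted p = 0.000194). *Ldha*, which makes lactate, was at 119, 140.3, 124, 136 and 132 CPM in CTAL and 188, 192, 149, 153 and 166 CPM in MTAL, without overlap (0.38 ± 0.09, adjusted p = 0.0136). *Slc2a1*, the glucose transporter GLUT1, was at 146, 173, 137, 175 and 146 CPM in CTAL and 210.4, 260.0, 171, 178 and 253 CPM in MTAL, with overlap (0.47 ± 0.12, adjusted p = 0.027). *Pfkl* (0.34 ± 0.09, adjusted p = 0.0293), *Mxi1* (0.58 ± 0.12, adjusted p = 0.00471), *Cited2* (0.52 ± 0.12, adjusted p = 0.0109) and the collagen-modifying *Plod2* (0.74 ± 0.17, adjusted p = 0.0107) were the others. In contrast *Pgk1* (-0.27 ± 0.084, adjusted p = 0.0628), *Bnip3* (-0.15 ± 0.10, adjusted p = 0.45), *Ddit4* (-0.004 ± 0.20, adjusted p = 0.995) and *Pdk1* (-0.09 ± 0.12, adjusted p = 0.766) did not pass. The hypoxia core letters ACGTG or GCGTG, on either strand, occurred in the 250 bases before a start in 87.8% of the 49 list members with a window and in 62.9% of tested genes. Without CTAL pool 1 the members called higher went from 7 to 4 and those called lower from 3 to 1, and with the *Xist* term 5 were called higher. Among the genes of glucose use above, only *Aldoc* kept its call without CTAL pool 1.

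Isoforms of glycolytic proteins went in opposite directions. Of 19 tested members 4 were higher and 2 lower in MTAL (31.6% called, median log2 fold change 0.083). *Pfkm*, the muscle-type phosphofructokinase, was at 141, 118, 128, 127 and 129 CPM in CTAL and 99.6, 99, 93.4, 99 and 99.99 CPM in MTAL, lower without overlap (-0.39 ± 0.073 (SE), adjusted p = 0.00267), where *Pfkl*, the liver type, was higher. The insulin-responsive glucose transporter gene *Slc2a4* was at 193, 163, 157, 161 and 191 CPM in CTAL and 111, 127, 112, 91.3 and 119.97 CPM in MTAL, lower without overlap (-0.62 ± 0.10, adjusted p = 0.000593), where *Slc2a1* was higher. *Gapdh* (-0.0086 ± 0.087, adjusted p = 0.976), *Pkm* (0.077 ± 0.10, adjusted p = 0.756) and *Hk1* (0.22 ± 0.08, adjusted p = 0.126) did not pass. Without CTAL pool 1 only *Aldoc* kept its call among the 4 higher members, and *Slc2a1* and *Ldha* had adjusted p values of 0.0762 and 0.0529.

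*G6pc*, which encodes the glucose-releasing enzyme glucose-6-phosphatase (chr11:101367561-101377903), had the fourth largest rise among the genes named by size. It was at 8.04, 16.4, 10.5, 12.3 and 10.1 CPM in CTAL and 52.5, 65.7, 92.2, 48.8 and 43.7 CPM in MTAL, without overlap (2.42 ± 0.22 (SE), adjusted p = 2.61e-06). The other genes of gluconeogenesis did not move with it. *Pck1* (-0.53 ± 0.37, adjusted p = 0.494) and *Fbp1* (-0.60 ± 0.35, adjusted p = 0.381) were under 14 CPM and did not pass, and 3 of 16 tested members were called, with *Pgm1* (-0.44 ± 0.12, adjusted p = 0.0378) and *Pygb* (-0.41 ± 0.087, adjusted p = 0.00643) lower. The call of *Pgm1* was lost in 8 of the 10 fits that left out 1 pool, CTAL pool 1 among them. Markers of the proximal tubule, where *G6pc* is known to be abundant, were read beside it. None of the 5 tested proximal tubule markers was called, their sum was 83.9 to 245 CPM in CTAL and 79.9 to 138 CPM in MTAL, and *Slc2a2* was under 0.69 CPM in every pool.

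**Figure D3:**
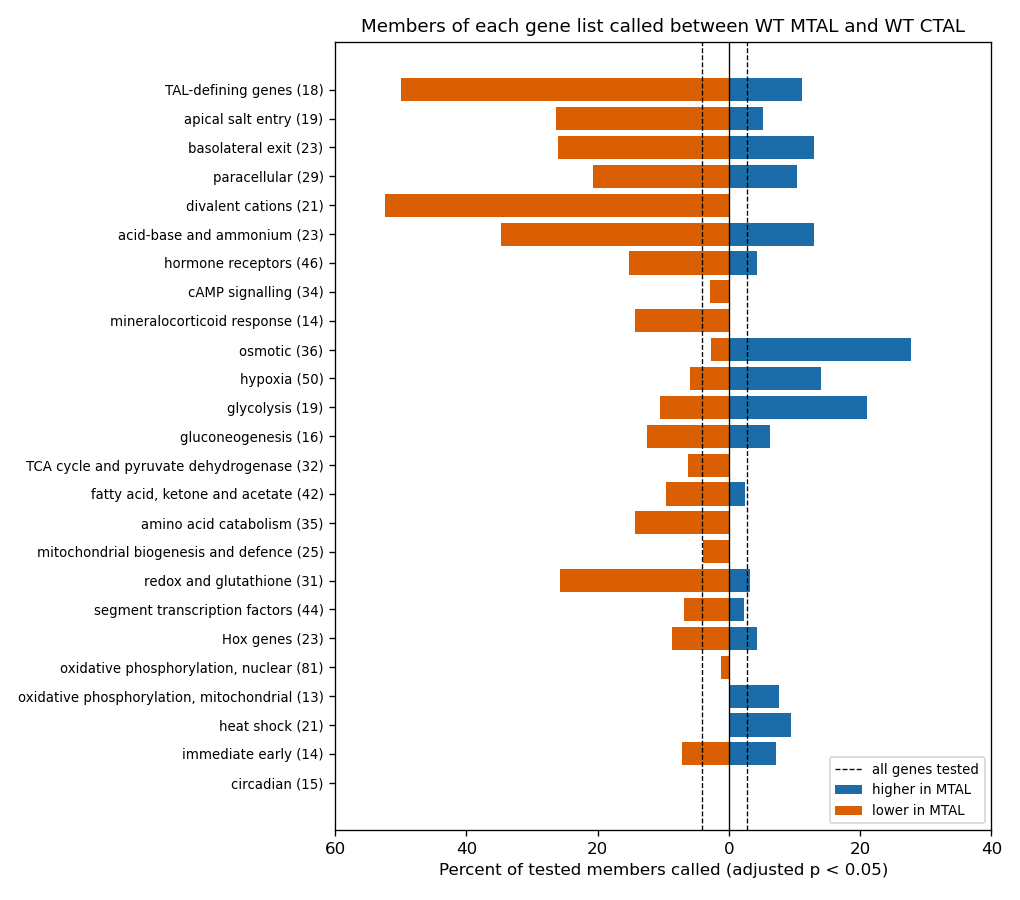
Percent of the tested members of each of 25 gene lists called higher (blue, right) or lower (orange, left) in WT MTAL than in WT CTAL, with the number of tested members in brackets and dashed lines at the shares of all genes tested (2.76% higher, 4.1% lower). The called divalent cation (52.4%) and defining thick limb genes are mainly lower, the called osmotic genes (30.6%) are mainly higher, and nuclear oxidative phosphorylation genes stay near 0. Some lists share members, and the lists were chosen with earlier results of these data known.

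Few nuclear genes of oxidative phosphorylation were called. Of 81 tested 1 was called (1.23% against 6.87% of all genes, median log2 fold change -0.063), *Cox6b2*, which was under 9 CPM and did not reach the filter without CTAL pool 1. Of the 13 mitochondrial genes only *mt-Nd3* was called (0.92 ± 0.26 (SE), adjusted p = 0.0465), with 1916 CPM in MTAL pool 11, and the call was lost in 7 of 10 fits that left out 1 pool, CTAL pool 1 among them, while 4 were called without MTAL pool 13. In the TCA cycle 2 of 32 tested genes were lower (6.25% called, against 6.87% of all genes), *Pdk3* (-0.47 ± 0.14, adjusted p = 0.0466) and *Suclg2* (-0.29 ± 0.081, adjusted p = 0.0393). Each call was lost in 8 of the 10 fits that left out 1 pool, CTAL pool 1 among them. The biogenesis regulator *Ppargc1a* was at 347, 332, 302, 383 and 350.2 CPM in CTAL and 349, 409.8, 554, 422 and 390.4 CPM in MTAL and did not pass (0.31 ± 0.11, adjusted p = 0.112), and 1 of 25 genes of its group was called, the creatine kinase gene *Ckmt1* (-0.48 ± 0.11, adjusted p = 0.00891).

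Some genes of fatty acid, ketone and acetate use were called. *Acss1*, which activates acetate in mitochondria, was at 488, 413, 415, 373 and 359 CPM in CTAL and 209, 174, 199, 216 and 174 CPM in MTAL, without overlap (-1.08 ± 0.10 (SE), adjusted p = 2.98e-06). *Acsl5*, which activates long-chain fatty acids, was at 171, 118, 113, 139 and 122 CPM in CTAL and 71.5, 80, 59.7, 69.8 and 71.8 CPM in MTAL, without overlap (-0.91 ± 0.11, adjusted p = 8.07e-05). *Cpt1a*, the gate of mitochondrial fatty acid oxidation, did not pass (-0.13 ± 0.10, adjusted p = 0.55). In the whole list 1 of 42 tested genes was higher and 4 lower (11.9% called, against 6.87% of all genes), and 2 were lower without CTAL pool 1 or 10 or MTAL pool 13 or 15.

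Of 35 tested genes of amino acid breakdown none was higher and 5 were lower (14.3%). *Aass*, which begins lysine breakdown, was at 20.2, 9.34, 15.8, 15.5 and 19.7 CPM in CTAL and 5.55, 3.58, 2.32, 4.08 and 2.71 CPM in MTAL, without overlap (-2.15 ± 0.27 (SE), adjusted p = 6.74e-05). *Ass1*, an enzyme of arginine synthesis, was lower at under 22 CPM (-1.71 ± 0.44, adjusted p = 0.0256), and the call was lost in 4 of the 10 fits that left out 1 pool (adjusted p = 0.0812 without CTAL pool 22). In redox defence 1 of 31 tested genes was higher and 8 were lower (29%). *Gclc*, the rate-limiting enzyme of glutathione synthesis (-0.71 ± 0.13, adjusted p = 0.00177), the glutathione transferase gene *Gstm2* (-0.71 ± 0.10, adjusted p = 0.00016) and *Nfe2l2*, the NRF2 gene (-0.32 ± 0.074, adjusted p = 0.0139), were lower, whereas *Nqo1* was higher (0.62 ± 0.17, adjusted p = 0.04), a call lost without CTAL pool 1, 8 or 10 or MTAL pool 11, 13 or 15. *Gpx3*, the secreted glutathione peroxidase, was lower (-1.15 ± 0.29, adjusted p = 0.0199), with CTAL pool 22 at 97.7 CPM and the other CTAL pools at 26.8 to 33.5 CPM, and its log2 fold change was -0.64 without that pool. The call of *Gpx3* was lost in 2 of the 10 fits that left out 1 pool (adjusted p = 0.0543 without MTAL pool 19).

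Of 44 tested transcription factor genes 1 was higher and 3 lower, 9.09% called against 6.87% of all genes. *Foxq1*, a forkhead factor (chr13:31556134-31560976), was at 107, 89.2, 84.5, 71.7 and 126 CPM in CTAL and 24.5, 19, 16.9, 19.1 and 21.5 CPM in MTAL, far apart (-2.25 ± 0.15 (SE), adjusted p = 1.13e-07). *Tfcp2l1*, a factor of distal nephron identity, was at 684, 457, 815, 606 and 799.6 CPM in CTAL and 349, 334, 441, 364 and 279 CPM in MTAL (-0.93 ± 0.15, adjusted p = 0.000628), and *Ybx2* was lower as well (-1.01 ± 0.15, adjusted p = 0.000327). *Pou3f3*, a factor of loop of Henle development, was at 434, 429.9, 431, 410.2 and 485 CPM in CTAL and 533, 491, 588, 495 and 538 CPM in MTAL, higher by a small step (0.27 ± 0.078, adjusted p = 0.0447) that was lost in 7 of 10 fits that left out 1 pool. No member was higher without CTAL pool 1 and 5 were without MTAL pool 17. *Irx3* (-0.55 ± 0.19, adjusted p = 0.104) did not pass. Among 23 tested Hox genes, which carry positional identity, *Hoxd8* was at 222, 198, 207, 225 and 192 CPM in CTAL and 129, 119, 95.1, 113 and 133 CPM in MTAL, lower without overlap (-0.82 ± 0.094, adjusted p = 2.66e-05). *Hoxd9* was lower (-0.33 ± 0.083, adjusted p = 0.0203) and *Hoxa10* higher (0.84 ± 0.23, adjusted p = 0.0365), and both calls were lost without CTAL pool 1. Of the 10 fits that left out 1 pool, 3 lost the call of *Hoxd9* and 6 that of *Hoxa10*.

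The largest differences lay partly outside these lists. The 10 genes with the largest fall in MTAL were *Sfrp1*, *Uroc1*, *Mapk4*, *Papln*, *Ly6g6g*, *Dusp9*, *Hpcal4*, *Adamtsl2*, *Pkdcc* and *Tmem52b*, with log2 fold changes from -2.95 to -2.33. *Sfrp1*, a secreted inhibitor of Wnt signalling, was at 512, 203, 285, 291 and 499 CPM in CTAL and 48.2, 61.7, 50.4, 31.3 and 40.3 CPM in MTAL (-2.95 ± 0.24 (SE), adjusted p = 1.17e-06). *Tmem52b*, a membrane protein gene, was at 654, 431, 546, 387 and 512 CPM in CTAL and 126, 91.3, 90.1, 88.8 and 107 CPM in MTAL (-2.33 ± 0.14, adjusted p = 7.4e-08). *Dusp9*, a phosphatase of MAP kinases, was at 109.8, 62.3, 142, 60 and 86.1 CPM in CTAL and 22.2, 15.3, 10.8, 14 and 12.5 CPM in MTAL (-2.63 ± 0.24, adjusted p = 2.98e-06). *Adamtsl2*, a matrix protein gene, was at 51.2, 44.3, 66.6, 49.7 and 34.7 CPM in CTAL and 8.35, 14.5, 5.14, 8.91 and 8.29 CPM in MTAL (-2.43 ± 0.23, adjusted p = 4.66e-06).

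The 10 genes with the largest rise were *Spon1*, *Slc14a1*, *Slc6a12*, *G6pc*, *Lama1*, *Slc24a5*, *Scel*, *Rph3a*, *Ndrg4* and *Nupr1*, with log2 fold changes from 2.51 down to 2.05. *Spon1*, a secreted matrix protein gene, was at 2.1, 2.24, 1.63, 3.36 and 1.88 CPM in CTAL and 13.9, 14.6, 11.4, 12.3 and 11.5 CPM in MTAL (2.51 ± 0.24 (SE), adjusted p = 4.63e-06). *Lama1*, a laminin chain gene, was at 7.5, 7.56, 5.48, 9.62 and 8.2 CPM in CTAL and 37.6, 49, 44.1, 24 and 36.5 CPM in MTAL (2.32 ± 0.20, adjusted p = 1.68e-06). *Scel*, the sciellin gene, was at 12.8, 22.1, 13.2, 16.2 and 15.6 CPM in CTAL and 60.2, 69.8, 90.8, 88.5 and 69.3 CPM in MTAL (2.26 ± 0.16, adjusted p = 1.98e-07). The stress-induced *Nupr1* was at 2.72, 5.7, 3.05, 4.03 and 5.45 CPM in CTAL and 14.6, 15.3, 23.2, 13.7 and 18.6 CPM in MTAL (2.05 ± 0.24, adjusted p = 4.38e-05).

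Markers of other cell types and of tissue stress were read as well. Of 9 tested immune markers 6 were lower and *Csf1r* was higher (0.79 ± 0.20 (SE), adjusted p = 0.0199) in MTAL, and the sum of 11 did not overlap (244 to 309 CPM in CTAL and 159 to 240 CPM in MTAL). The antigen presentation genes *H2-Ab1* (-0.78 ± 0.14, adjusted p = 0.00231) and *Cd74* (-0.65 ± 0.14, adjusted p = 0.00852) and the complement gene *C1qa* (-0.97 ± 0.25, adjusted p = 0.0234) were lower, *Ptprc* (-0.41 ± 0.20, adjusted p = 0.29) and *Lyz2* (0.012 ± 0.18, adjusted p = 0.982) did not pass, and without CTAL pool 1 or 10 the lower members went from 6 to 2 and the higher from 1 to 0. Of 7 tested markers of fibroblasts and vessel wall cells 1 was called, and their sum overlapped. It was *Ren1*, the renin gene of the afferent arteriole, which was at 15.4, 22.6, 39.3, 15.2 and 5.65 CPM in CTAL and 3.49, 3.69, 7.01, 7.51 and 2.76 CPM in MTAL (-2.00 ± 0.41, adjusted p = 0.00561). The injury markers summed to 1515 to 1779 CPM in CTAL and 1181 to 1444 CPM in MTAL, mostly *Spp1* (-0.42 ± 0.083, adjusted p = 0.00435), and of 7 tested *Spp1* and *Clu* (-0.79 ± 0.17, adjusted p = 0.00846) were lower. Of 14 tested immediate early genes *Ier3* was lower (-1.42 ± 0.21, adjusted p = 0.000333) and *Myc* higher (0.996 ± 0.24, adjusted p = 0.0175), and 12 did not pass. The median log2 fold change of the 14 was 0.60, against 0.015 over all genes. The call of *Myc* was lost in 3 of the 10 fits that left out 1 pool (adjusted p = 0.0538 without CTAL pool 1) and with the *Xist* term (0.0659). With all pools none of 15 circadian genes was called.

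The segment difference was measured again in the *Cldn10* cKO pools, which come from other animals. There 211 of 12044 genes were called between 3 MTAL and 5 CTAL pools (1.75%), 113 of them at least 2-fold (0.938%). Of the 270 genes that differed at least 2-fold in WT, 256 were tested in cKO, 230 had the same sign, 64 were called in the same direction and none in the opposite one. Without cKO MTAL pool 16, 37 were called in the same direction. The genes lower in WT MTAL had a median log2 fold change of -1.43 in WT and -0.63 in cKO, and the genes higher in WT MTAL had 1.34 and 0.957. The WT medians describe genes chosen on that contrast and are not a test. All 10 osmotic genes higher in WT MTAL had the same sign in cKO, and 8 were called there, among them *Slc6a12* with a log2 fold change of 2.28 (adjusted p = 0.000958), *Aqp1* with 2.21 (adjusted p = 0.00146) and *Ranbp3l* with 1.44 (adjusted p = 0.00437), whereas *Nfat5*, at 0.24 (adjusted p = 0.314), did not pass. Of the transport genes, *Fxyd2* was called in cKO at 0.68 (adjusted p = 0.0105), and *Kcnt1*, at 0.25 (adjusted p = 0.588), and *Slc4a7*, at 0.69 (adjusted p = 0.122), did not pass. The cKO call of *Fxyd2* was lost without cKO MTAL pool 16 (adjusted p = 0.0673).

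Whether the segment difference itself depends on the genotype was tested as an interaction over 12586 genes, of which 36 were called (0.286%). Among the 270 genes 18 had a significant interaction, and for 17 of them the difference was smaller in cKO. These counts were 34 and 33 without cKO MTAL pool 16, 43 and 42 without pool 18, and 14 and 14 without pool 20. The 270 genes were chosen on the WT values that also enter the interaction, so that a smaller difference in cKO is favoured by the choice. *Foxq1*, *Pth1r*, *Cldn16*, *Slc34a2* and *Adamtsl2* were among the 18. The log2 fold change of *Cldn16* was -1.88 in WT and -0.62 (adjusted p = 0.0398) in cKO (interaction 1.23, adjusted p = 0.00121). For *Foxq1* it was -2.25 and -0.33 (adjusted p = 0.418) (interaction 1.88, adjusted p = 0.00121), and for *Pth1r* -2.23 and -0.67 (adjusted p = 0.0713) (interaction 1.53, adjusted p = 0.00356). The cKO call of *Cldn16* was lost without cKO MTAL pool 16 (adjusted p = 0.139) or 20 (0.0972). In cKO *Foxq1* was called lower without pool 20 (-0.68, adjusted p = 0.0455), and *Pth1r* without pool 18 (-0.83, adjusted p = 0.0172). *Umod* (interaction 0.61, adjusted p = 0.045) and *G6pc* (interaction -1.67, adjusted p = 0.0453) passed narrowly. The interactions of *Casr* (0.49, adjusted p = 0.0854), *Vdr* (0.60, adjusted p = 0.0967), *Cldn10* (-0.23, adjusted p = 0.656) and *Slc6a12* (-0.22, adjusted p = 0.851) did not pass. That of *Vdr* passed without cKO MTAL pool 18 (0.67, adjusted p = 0.0347).

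The cKO values rest on 3 MTAL pools, of which pool 18 stood apart with an injury marker sum of 9557 CPM on total counts against 2489 and 2478 CPM in pools 16 and 20. All 3 lay above the WT MTAL pools, which held 1181 to 1444 CPM on TMM-normalized library sizes. The study describes nephrocalcinosis in the outer medulla of cKO kidneys, and it left out further cKO MTAL pools after quality control. Pool 20 stood apart with a principal cell marker sum of 1134 CPM against 136 and 133 CPM in pools 16 and 18. The part of nephrocalcinosis, injury and principal cell markers in the cKO values was not tested. Without pool 18, 515 genes differed at least 2-fold in cKO and 570 had an interaction. Without pool 16 the interaction count was 58, and in each fit that left out 1 cKO MTAL pool the 5 genes *Foxq1*, *Pth1r*, *Cldn16*, *Slc34a2* and *Adamtsl2* kept their interaction, while those of *Umod* and *G6pc* were lost without pool 20.

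**Figure D4:**
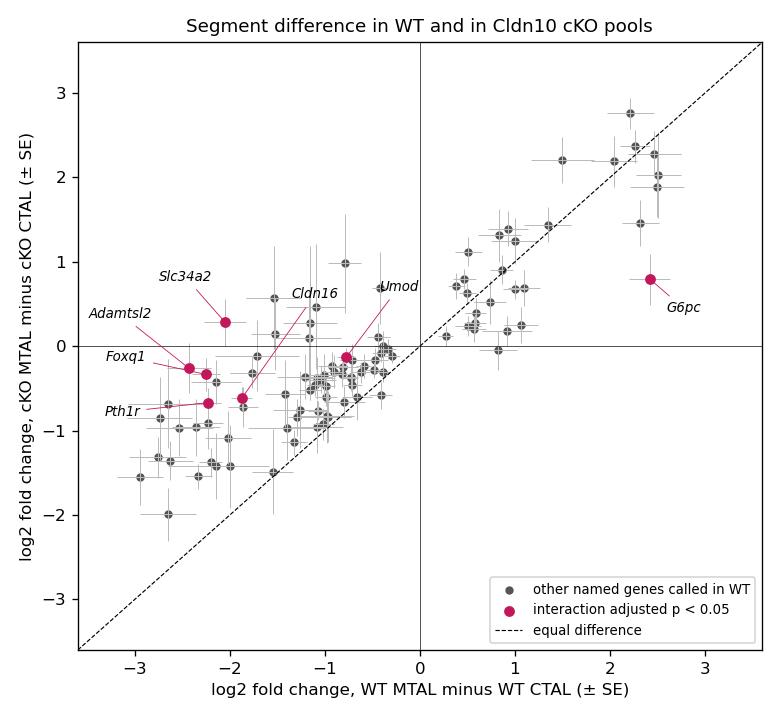
Log2 fold change of MTAL relative to CTAL in WT pools (horizontal axis) and in *Cldn10* cKO pools (vertical axis) with SE bars for 100 named genes called in WT, the dashed line marking equal differences. The 7 genes with a significant interaction (pink) include *Foxq1*, *Pth1r* and *Cldn16*, which lie nearer to 0 in cKO than in WT, and *G6pc* is the only one of the 7 that is higher in MTAL.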

How the data were processed

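The authors used fastp for trimming and DRAGEN for mapping to mm10 and for counting against a gencode annotation. The strand setting of the counting and the treatment of reads that map to several genes are not given in the sources used here. The deposited estimated counts (expected counts) are not normalized and sum to 10824299 to 62339939 per WT pool. They were rounded to whole numbers, where the planned design had assumed whole counts. The TPM values deposited by the authors correct for transcript length and depth and served to compare levels between genes.

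A gene entered the test when 5 or more of the 10 WT pools held 3 CPM. The test was edgeR's quasi-likelihood F test (edgeR 4.0.16, R 4.3.3) after TMM normalization on the WT pools only, with Benjamini-Hochberg adjustment over 11650 genes. Calls were made at an adjusted p under 0.05 and were also counted at log2 fold changes of 1 or more in size. Each SE was computed from the fold change and its F statistic. The cKO pools (3 CPM in 3 or more pools) were fitted alone, and the interaction in 1 fit of all 18 pools. Scripts were tested on simulated counts. Replicate pools differed by more than sampling noise (chi-square per gene 19.2 to 213). Coordinates are from GENCODE on GRCm38, which holds 99.5% of the gene identifiers.

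The members, the 25 physiology lists and the 12 marker lists were chosen with earlier results of these data known. Genes named are the 10 largest rises and falls among called, 2-fold and non-overlapping genes (predicted genes left out) and list members. Some list members are not reported here by name and stay in the counts and sums of their lists. Promoter windows are those of RefSeq (GRCm38.p6, 27025 symbols), and TonE was searched on both strands. Alternatives were the likelihood ratio tests of edgeR and of DESeq2 (version 1.42.0), DESeq2 size factors, no filter, limma (version 3.58.1) on log2(TPM + 0.5), 1 fit of all pools, leaving out each pool, and 2 settings for *Xist*.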

Additional observations from a re-analysis of the deposited data

Results flagged for a closer look

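The segment difference depended on the genotype for 7 of the named genes, by the interaction test of edgeR's quasi-likelihood fit. The difference in cKO minus that in WT, on the log2 scale, was 2.14 for *Adamtsl2*, 1.23 for *Cldn16*, 1.88 for *Foxq1*, 1.53 for *Pth1r*, 2.29 for *Slc34a2* and 0.61 for *Umod*, all lower in WT MTAL, and -1.67 for *G6pc*, which was higher. For each of the 7 the segment difference in cKO was nearer to 0 than in WT, with *Slc34a2* changing sign to 0.28 (adjusted p = 0.64 in cKO). Many named genes were chosen on the WT values that also enter the interaction, which favours this direction.

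A single pool stood far from the other 4 of its group in 17 of 274 screened pairs of a named gene and a segment, by Dixon's ratio above 0.71, and chance alone flags about 1 in 20. MTAL pool 11 was high for *Hsd11b2* (72.0 CPM against 9.98 to 24.4), *Rhcg* (26.0 against 4.27 to 9.53) and *Ildr2* (7.72 against 0.958 to 1.71), and had the highest sums of principal and intercalated cell markers. MTAL pool 13 was high for *Cldn14* (4.96 CPM), *Atp2b4* (13.9 CPM), *Slc12a7* (168 CPM) and *Suclg2* (203 CPM). MTAL pool 15 was low for *Bsnd* (145 CPM against 229.5 to 256) and *Pfkm* (93.4 CPM) and high for *Nfat5* (353 CPM against 223 to 235). MTAL pool 17 was low for *Irx3* (23.5 CPM), and MTAL pool 19 was low for *Pkdcc* (2.12 CPM). Among the CTAL pools, pool 22 was high for *Gpx3* (97.7 CPM against 26.8 to 33.5) and *Irx3* (83.6 CPM), pool 1 for *Kl* (563 CPM), pool 3 for *mt-Nd3* (899 CPM) and pool 10 for *Ndrg4* (2.56 CPM).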

How the results depend on the processing

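No named gene changed the direction of its WT segment difference with a call under any alternative. Without a filter on low counts 121 genes were at least 2-fold higher in MTAL (76 with the filter). With limma on log2(TPM + 0.5) 449 genes were called (800), 50 of them at least 2-fold higher, and 15 members of all physiology lists together were higher (34). Without the 6 pools with *Xist* 503 genes were called. The cause of these changes was not tested, except that fewer pools or more genes entered by construction. Leaving out 1 WT pool gave 538 to 784 called genes, 201 to 277 at least 2-fold (55 to 84 higher, 146 to 210 lower), and 24 to 43 higher and 57 to 74 lower list members. Leaving out 1 cKO MTAL pool gave 77 to 515 genes at least 2-fold in cKO (113 with all) and 27 to 570 interactions (36 with all). Of 102 named genes called, 77 kept the call in every fit without 1 WT pool. With limma on log2(TPM + 0.5) 31 of the 102 lost the call, and with the *Xist* term 16 lost it. No paired analysis was possible because the pools of the 2 segments come from different mice and share no number. The 5 pools per segment and up to 62339939 counts limit the smallest differences that could be called, and *Xist*, the label of CTAL pool 1 and gene overlaps remain unresolved.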
